A study of Mus musculus with 9 samples.

Results

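Small leucine-rich proteoglycans and fibulins are matrix proteins other than collagen that organise collagen and elastic fibrils, and 10 of their genes were followed in osteocyte-like MLO-Y4 cells. The rows were chosen by gene name from the 56748 genes of the deposited table. They comprised the small leucine-rich proteoglycan genes Dcn, Bgn, Lum, Fmod, Ogn and Prelp, the fibulin genes Fbln1, Fbln2 and Fbln5, and Vcan, which encodes the large proteoglycan versican. All 10 names were found, each on 1 row.

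MLO-Y4 is a mouse osteocyte-like line and was grown on a collagen coat below a transwell insert that held primary articular chondrocytes of C57BL/6J mice 5 to 6 days old. The porous membrane lets soluble factors pass between the cell types. The 3 control libraries came from MLO-Y4 cells co-cultured with chondrocytes that had not been stimulated. The 3 libraries of 24 h and the 3 of 48 h came from co-culture with chondrocytes that had first been exposed for 6 h to interleukin-1β at 10 ng/mL. The labels give no co-culture time for the control, so stimulation and time cannot be told apart in a comparison with it. The labels of the 48 h libraries give MLO-Y5, MLO-Y6 and MLO-Y7 as cell line, 1 name per library, although the protocol names MLO-Y4 alone. Nothing says that replicates were separate cultures, and p-values therefore measure only the spread between these libraries, which may be technical.

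Total counts were 12250628 to 15956441 per control library, 14440454 to 15558585 at 24 h and 16458398 to 18515456 at 48 h. Of 12 osteocyte and osteoblast markers, Mepe, Fgf23 and Ibsp had 0 counts in every library, Sost had at most 1 and Dmp1 at most 6, whereas Pdpn, which encodes podoplanin, averaged 212.3 CPM in the control (counts scaled to 1000000 per library). Mepe, Fgf23, Ibsp, Sost and Dmp1 were thus absent or near 0, whereas Phex of the same list averaged 14.6 CPM in the control. Of 16 chondrocyte markers, Acan, Col9a1, Col9a2, Matn1 and Cnmd had 0 counts in every library and Col2a1 had at most 7. Their summed level was 1682 to 1717 CPM in the control, 1566 to 1649 CPM at 24 h and 2128 to 2217 CPM at 48 h, and nearly all of it was Prg4, the lubricin gene, with means of 1576, 1493 and 2047 CPM. The 8 macrophage markers summed to 18.6 to 20.4, 24.2 to 26.4 and 21.3 to 24.3 CPM, with Adgre1 and Tyrobp at 0 throughout. Most of that sum was Cd14, with means of 13.3, 20.5 and 16.0 CPM. Csf1r and Cd68 averaged 3.3 and 2.7 CPM in the control and 1.8 and 2.4 CPM at 24 h.

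Small leucine-rich proteoglycans carry a core of leucine-rich repeats that binds collagen fibrils and sets their spacing and width, and most bear sulfated sugar chains. Decorin and biglycan, the products of Dcn and Bgn, form one class with chondroitin or dermatan sulfate chains and also bind growth factors such as TGF-β. Lumican, fibromodulin and PRELP form another class, and osteoglycin, the product of Ogn, belongs to neither. Fibulins are calcium-binding glycoproteins of elastic fibres and basement membranes. Versican binds hyaluronan and swells the matrix around cells. In bone, biglycan and decorin are among the abundant proteoglycans.

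The members lie on separate chromosomes or far apart, except for neighbouring pairs on chromosomes 1 and 10. In the deposited GRCm39 coordinates Dcn (chromosome 10, 97315471 to 97354005, plus strand) is followed by Lum (97400990 to 97408565, plus strand). Prelp (chromosome 1, 133838042 to 133849152, minus strand) is followed by Fmod (133964992 to 133976015, plus strand). Ogn (chromosome 13, 49761522 to 49777977, plus strand) and Vcan (chromosome 13, 89803431 to 89890628, minus strand) share a chromosome but are distant. Bgn lies on chromosome X (72527208 to 72539539, plus strand), Fbln1 on chromosome 15 (85090150 to 85170736, plus strand), Fbln2 on chromosome 6 (91189437 to 91249522, plus strand) and Fbln5 on chromosome 12 (101712824 to 101785314, minus strand).

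Sequence upstream of the start site was available for 8 of the 10 members in a RefSeq promoter table of build GRCm38.p6, with no entry for Dcn and Lum. Each window of 250 bases before the start site was placed on GRCm39 by exact match, where it occurred once on the chromosome of its gene. Where a gene had 2 entries (Fbln1 and Fbln5), that nearest to the deposited start was taken. The parts outside annotated exons are shown for 4 genes whose level moved between groups (Fbln1, Ogn, Fbln5 and Vcan) and, for contrast, for Bgn, whose level hardly moved. They run 5′ to 3′ on the gene's own strand, and capitals mark matches on either strand of a TATA box spelled TATAAA, a hypoxia response element core spelled ACGTG, an AP-1 site spelled TGANTCA and a SMAD site spelled CAGAC. The windows are chr15:85089900-85090149 (plus strand) for Fbln1, chr13:49761241-49761348 (plus strand) for Ogn, chr12:101785430-101785628 (minus strand) for Fbln5, chr13:89890815-89890881 (minus strand) for Vcan and chrX:72526957-72527206 (plus strand) for Bgn, all on GRCm39.
Fbln1: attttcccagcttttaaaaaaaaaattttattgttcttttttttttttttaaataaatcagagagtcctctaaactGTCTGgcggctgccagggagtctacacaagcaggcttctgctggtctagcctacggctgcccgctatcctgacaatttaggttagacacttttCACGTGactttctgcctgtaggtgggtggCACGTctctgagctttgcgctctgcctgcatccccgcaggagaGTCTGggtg
Ogn: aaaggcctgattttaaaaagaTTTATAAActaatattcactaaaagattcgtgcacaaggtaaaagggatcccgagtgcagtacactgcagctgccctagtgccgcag
Fbln5: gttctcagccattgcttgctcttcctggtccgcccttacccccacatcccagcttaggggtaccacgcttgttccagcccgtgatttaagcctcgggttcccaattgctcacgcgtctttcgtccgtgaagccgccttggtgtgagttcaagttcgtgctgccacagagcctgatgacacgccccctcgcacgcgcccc
Vcan: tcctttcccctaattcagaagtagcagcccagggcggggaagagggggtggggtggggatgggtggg
Bgn: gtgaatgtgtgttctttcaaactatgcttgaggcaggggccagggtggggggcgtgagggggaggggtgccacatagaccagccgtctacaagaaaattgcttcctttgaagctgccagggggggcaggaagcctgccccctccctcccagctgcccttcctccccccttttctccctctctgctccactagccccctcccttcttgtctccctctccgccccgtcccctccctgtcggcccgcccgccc

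Over the full windows of 250 bases, Fbln1 held 3 matches of ACGTG, at -81, -80 and -52 from the start site, of which the first pair overlap because CACGTG reads the same on both strands. Fbln1 also held 2 matches of CAGAC, at -174 and -9. Fmod held 2 matches of CAGAC as well, at -195 and -148, and Prelp held 1, at -161, with no other motif in either window. Ogn held 2 overlapping matches of TATAAA, at -229 and -227. Fbln5, Vcan, Bgn and Fbln2 held no match of any of the 4 motifs. The Fbln2 window lay wholly in annotated exons, with its start site 309 bases downstream of the deposited start. Exons also covered 183 of the 250 bases for Vcan, 142 for Ogn and 51 for Fbln5. Of 32851 windows of this length in the table, 12.4% held TATAAA, 16.6% ACGTG, 6.75% TGANTCA and 42.2% CAGAC. The windows differed in base composition as well, from 42.0% G and C with 4 CG dinucleotides for Ogn and 46.4% with 7 for Fbln1 to 65.2% with 21 for Fbln5. A match of letters is a description of the sequence and not evidence of a bound site.

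Of the 10 genes, 7 were expressed well enough to be tested and 3 were at the limit of detection in all groups. The 7 tested genes (Dcn, Bgn, Ogn, Fbln1, Fbln2, Fbln5 and Vcan) had at least 476 counts in every library, so that none passed the filter on low counts through 1 group alone. Levels between genes are compared as CPM per kilobase of the deposited gene length, and their order rests on that length. In the control Fbln2 was the most abundant with 259.4 CPM per kilobase ± 13.5 (SD, n = 3), followed by Bgn with 134.4 ± 5.20 (SD, n = 3). Averaged over all libraries, 99.1% of tested genes lay below Fbln2 and 97.8% below Bgn on this scale.

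A middle tier followed in the control, with Fbln1 at 33.0 CPM per kilobase ± 1.61, Dcn at 28.3 ± 0.401 and Ogn at 24.8 ± 0.854 (SD, n = 3 each). Vcan stood at 9.42 CPM per kilobase ± 1.36 and Fbln5 at 5.95 ± 0.361 (SD, n = 3 each). No neighbours among these 7 genes had overlapping control libraries in that order. Prelp, the next gene in the order, had 3 to 4 counts per control library.

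The order changed between groups in its middle. At 24 h Vcan moved ahead of Ogn with 17.3 CPM per kilobase ± 1.32 (SD, n = 3) against 14.7 ± 2.04 (SD, n = 3), although libraries of the pair overlapped. At 48 h Fbln1, Ogn and Dcn stood at 64.0 ± 1.33, 62.4 ± 2.79 and 60.0 ± 1.92 CPM per kilobase (SD, n = 3 each) and could not be ranked, because libraries of neighbours overlapped. In plain CPM, without scaling to length, Dcn, Fbln1 and Ogn averaged 350.0, 279.5 and 160.2 at 48 h. Fbln2 and Bgn led in every group without overlap.

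**Figure D1:**
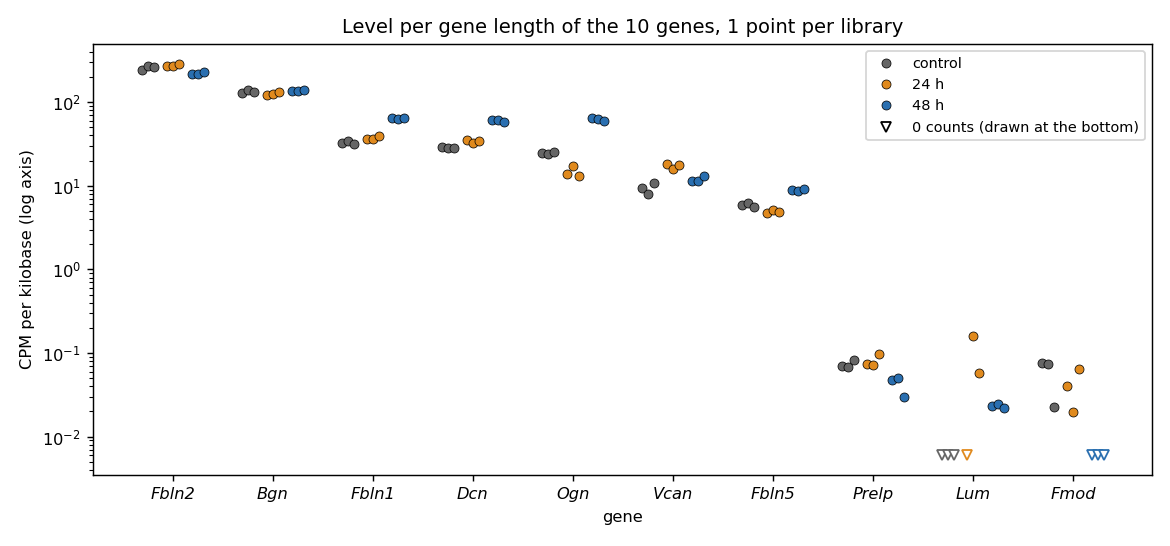
Level of each of the 10 genes as CPM per kilobase on a log axis, with 1 point per library coloured by group and triangles for libraries with 0 counts. Fbln2 and Bgn lead in all groups, Dcn, Ogn and Fbln1 converge between 60.0 and 64.0 CPM per kilobase on average at 48 h, and Prelp, Lum and Fmod lie far below the other genes.

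The share that each gene took of the summed level per length shifted accordingly. Fbln2 held 52.4% ± 0.923 (SD, n = 3) of the sum in the control, 54.1% ± 0.319 at 24 h and 39.1% ± 0.948 at 48 h. Over the same groups Ogn held 5.01% ± 0.278, 2.89% ± 0.461 and 11.0% ± 0.571. Dcn held 5.73% ± 0.289, 6.67% ± 0.268 and 10.6% ± 0.459. The plain CPM sum of the 10 genes, which is not scaled to length as the shares are, was 2895 to 3093 CPM in the control. It was 3147 to 3352 CPM at 24 h and 3224 to 3333 CPM at 48 h. Relative to control, the shares of Ogn and Dcn thus moved more than this plain sum. In bulk RNA, fewer cells with a transcript and less transcript per cell cannot be told apart.

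Changes were tested with edgeR's quasi-likelihood test over all 9 libraries, and a gene counts as called where its false discovery rate (FDR, the p-value adjusted by Benjamini-Hochberg over 13812 genes) is under 0.05. Against control, 5 of the 7 tested members were called higher at 48 h (Ogn, Dcn, Fbln1, Fbln5 and Vcan), 1 was called lower (Fbln2) and Bgn was not called. Of all genes tested 46.4% were called in this comparison, 22.0% higher and 24.4% lower. Libraries of the groups did not overlap for 6 of the 7 members, against 53.1% of all genes tested. The median log2 fold change was 0.59 for the 7 members and -0.0022 for all genes tested.

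At 24 h, 2 members were called higher (Vcan and Dcn) and 2 lower (Ogn and Fbln5), while Fbln1, Fbln2 and Bgn were not called. Of all genes tested 6.15% were called at this time, 3.25% higher and 2.90% lower. Libraries did not overlap for 6 of the 7 members, against 21.5% of all genes tested. The median log2 fold change was 0.10 for the 7 members and -0.0042 for all genes tested. The comparisons of 24 h and of 48 h with control share the control libraries, and each is therefore given on its own.

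Between 48 h and 24 h, 7 of 7 tested members were called, 5 higher at 48 h and 2 lower (Vcan and Fbln2). The control libraries are in the fit and enter its spread and scaling. Of all genes tested 49.1% were called, 23.7% higher and 25.4% lower. Libraries did not overlap for 7 of the 7 members, against 59.4% of all genes tested. In the joint test of the 3 groups 6 of the 7 were called, against 51.9% of all genes tested, and Bgn was not (FDR 0.0644). Bgn was called in the joint test when any 1 control library, or 24 h replicate 3, was left out, with library size as the only scaling, and with the stricter filter of 5 CPM in 3 libraries.

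**Figure D2:**
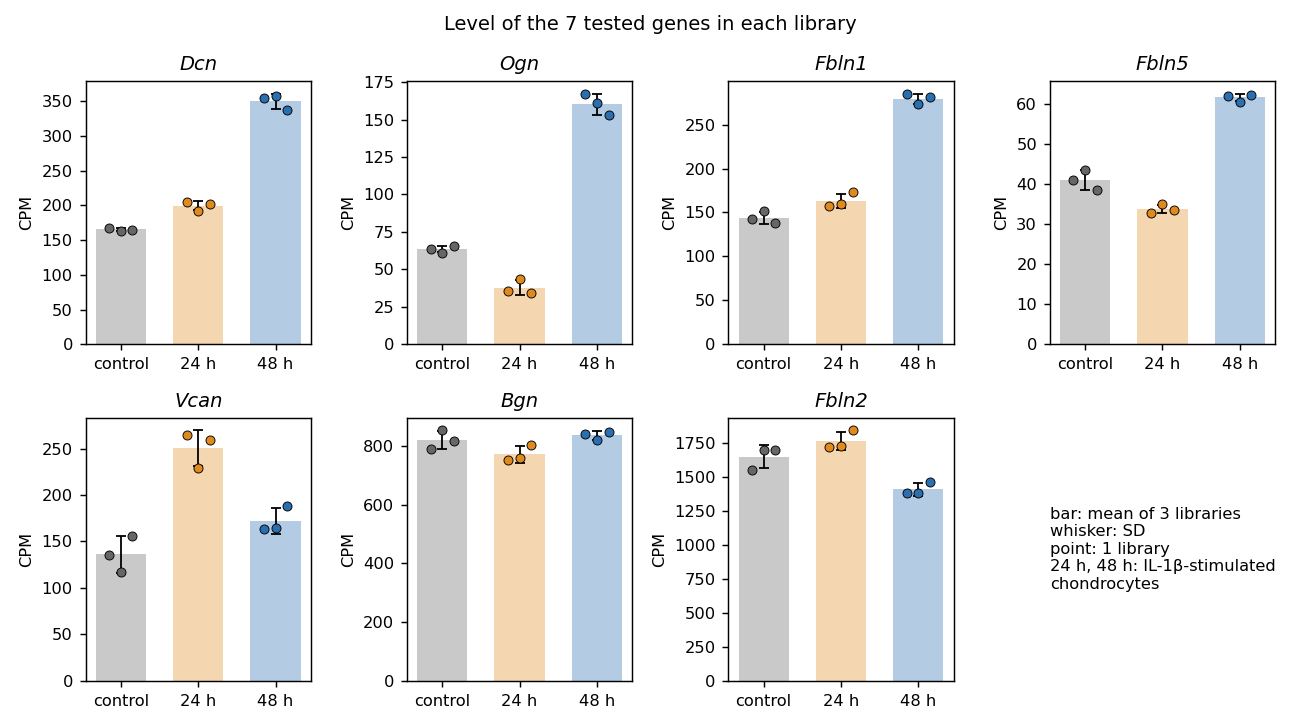
CPM of the 7 tested genes in each of the 9 libraries, with a panel per gene, bars for the mean of 3 libraries and whiskers for the SD. Dcn, Ogn, Fbln1 and Fbln5 are highest at 48 h, Vcan is highest at 24 h, Bgn is nearly level and Fbln2 is lowest at 48 h.

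Dcn, the decorin gene, rose in steps from control to 24 h to 48 h. The control libraries held 167.9, 163.2 and 165.3 CPM, the 24 h libraries 204.5, 191.9 and 201.8 CPM and the 48 h libraries 354.3, 358.4 and 337.3 CPM. The 3 ranges did not overlap, and the 48 h libraries stood well apart from the rest. The log2 fold change was 0.27 (SE 0.05, FDR 0.00136) at 24 h and 1.08 (SE 0.05, FDR 4.65e-12) at 48 h, a 1.20-fold and a 2.11-fold increase over control. The rise from 24 h to 48 h was 0.81 on the log2 scale (SE 0.05, FDR 1.44e-10). At 48 h 96.7% of tested genes had a lower log2 fold change than Dcn.

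Bgn, the biglycan gene and the closest relative of Dcn among the members, stayed within a narrow range. Its control libraries held 790.0, 853.1 and 815.5 CPM, its 24 h libraries 752.6, 757.6 and 804.2 CPM and its 48 h libraries 841.5, 819.5 and 846.8 CPM. Libraries of either time overlapped those of the control. The log2 fold change was -0.09 at 24 h (95% interval -0.18 to 0.0018, FDR 0.28) and 0.03 at 48 h (95% interval -0.06 to 0.12, FDR 0.61). Between the times it was 0.12 (SE 0.04, FDR 0.0298), with the 48 h libraries above the 24 h libraries. That call was lost when 24 h replicate 1 (FDR 0.136), 24 h replicate 2 (0.0739), 48 h replicate 1 (0.0879) or 48 h replicate 3 (0.102) was left out.

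Within this class the balance thus moved towards decorin transcripts. The ratio of Dcn to Bgn, both per kilobase, was 0.211 ± 0.0111 (SD, n = 3) in the control, 0.270 ± 0.0119 at 24 h and 0.438 ± 0.0205 at 48 h. Ratios in single libraries ran from 0.200 to 0.222, from 0.262 to 0.284 and from 0.416 to 0.457, with no overlap between groups.

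Ogn, the osteoglycin gene, had the largest change of the tested members at 48 h and lay below control at 24 h and above it at 48 h. The control libraries held 63.8, 61.2 and 65.6 CPM, the 24 h libraries 35.7, 43.8 and 34.0 CPM and the 48 h libraries 167.1, 160.8 and 152.8 CPM. Each 24 h library lay below, and each 48 h library above, every control library. At 24 h Ogn fell by 40.4%, a log2 fold change of -0.75 (SE 0.08, FDR 5.37e-06), and only 1.58% of tested genes had a lower value. At 48 h it was 2.52-fold over control, a log2 fold change of 1.33 (SE 0.07, FDR 7.35e-11). From 24 h to 48 h it rose 4.23-fold (log2 fold change 2.08, SE 0.08, FDR 4.07e-13), more than 99.5% of tested genes.

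Ogn overlaps Cenpp, a centromere protein gene on the opposite strand, and whether the strand entered the counting is not given in the sources used here. Cenpp had 124 to 180 counts per library, at most 28.4% of the Ogn count of the same library. Its log2 fold changes were -0.26 at 24 h (FDR 0.239) and -0.25 at 48 h (FDR 0.0877). The ratio of Ogn to Dcn per kilobase was 0.874 ± 0.0259 (SD, n = 3) in the control, 0.433 ± 0.0748 at 24 h and 1.04 ± 0.0276 at 48 h. The 2 transcripts therefore did not keep a fixed proportion, and the 24 h libraries held the lowest ratios.

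Lum, Fmod and Prelp, the members of the lumican and fibromodulin class, were at or near 0 and were left untested by the filter. Lum had 0 counts in each control library, 0, 6 and 2 counts at 24 h and 1 count in each 48 h library. Fmod had 4, 3 and 1 counts in the control, 2, 1 and 3 at 24 h and 0 in each 48 h library. Prelp had 4, 3 and 4 counts in the control, 4, 4 and 5 at 24 h and 3, 3 and 2 at 48 h. A count of 0 allows a level of up to 0.245 CPM in the shallowest control library and up to 0.18 CPM in the shallowest 48 h library, from a floor of 3 counts that covers counting error only. No fold is given at such counts.

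With no filter on low counts Fmod was called lower at 48 h than in the control (FDR 0.0355), on at most 4 counts per control library against 0 in each 48 h library, and Lum (FDR 0.368) and Prelp (FDR 0.612) were not called. At 24 h none of these genes was called without the filter, where Lum had an unadjusted p of 0.0192. The genes of this class that organise collagen in tendon and cornea were thus barely detectable in these cells at this depth in any group.

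Among the fibulins, Fbln1 and Fbln5 were higher at 48 h and Fbln2 was lower. Fbln1 encodes fibulin-1, which binds fibronectin and versican. Its control libraries held 142.4, 151.8 and 138.0 CPM, its 24 h libraries 157.1, 159.6 and 172.8 CPM and its 48 h libraries 284.6, 273.2 and 280.9 CPM. All 24 h libraries lay above all control libraries by a small margin, and the 48 h libraries lay far above both. At 48 h Fbln1 was 1.94-fold over control, a log2 fold change of 0.96 (SE 0.05, FDR 8.77e-11). At 24 h the log2 fold change was 0.18 (SE 0.05, FDR 0.0567), just outside the threshold. The 24 h value passed with DESeq2 (FDR 0.0212), with DESeq2 size factors in edgeR (0.0494), with no filter (0.0185), with a stricter filter (0.0461) and without control replicate 2 (0.0133).

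Fbln5 encodes fibulin-5, which tethers the crosslinking enzyme lysyl oxidase-like 1 to elastic fibres. Its control libraries held 41.1, 43.6 and 38.6 CPM, its 24 h libraries 32.8, 35.02 and 33.6 CPM and its 48 h libraries 62.1, 60.6 and 62.5 CPM. As for Ogn, each 24 h library lay below and each 48 h library above the control range. The log2 fold change was -0.28 at 24 h (SE 0.07, FDR 0.0146) and 0.59 at 48 h (SE 0.06, FDR 4.36e-07), a 1.5-fold increase. The call at 24 h was lost without control replicate 2 (FDR 0.0509), without 24 h replicate 1 (0.0934) or without 24 h replicate 3 (0.0645). From 24 h to 48 h Fbln5 rose 1.83-fold (log2 fold change 0.87, SE 0.06, FDR 2.88e-09).

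Fbln2 encodes fibulin-2, a partner of basement membrane proteins and fibrillin, and was the most abundant member. Its control libraries held 1553, 1703 and 1700 CPM, its 24 h libraries 1724, 1730 and 1846 CPM and its 48 h libraries 1381, 1387 and 1465 CPM. The 24 h libraries lay above and the 48 h libraries below the control range. At 48 h Fbln2 fell by 14.6% from control, a log2 fold change of -0.23 (SE 0.04, FDR 0.000303). At 24 h its log2 fold change was 0.10 (95% interval 0.0050 to 0.19, FDR 0.239) and was not called. From 24 h to 48 h it fell by 20.1% (log2 fold change -0.32, SE 0.04, FDR 6.08e-06).

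The proportion of fibulin transcripts changed at 48 h. The ratio of Fbln1 to Fbln2 per kilobase was 0.127 ± 0.0080 (SD, n = 3) in the control, 0.135 ± 0.0018 at 24 h and 0.289 ± 0.0106 at 48 h. That of Fbln5 to Fbln2 was 0.0230 ± 0.0018, 0.0177 ± 0.00095 and 0.0404 ± 0.0011. For Fbln1 to Fbln2 the control and 24 h libraries overlapped, whereas all 48 h libraries stood above both.

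Vcan, the versican gene, had the largest change of the tested members at 24 h. Its control libraries held 135.9, 116.7 and 156.1 CPM, its 24 h libraries 264.1, 228.8 and 258.8 CPM and its 48 h libraries 163.7, 164.1 and 188.4 CPM. All libraries of both times lay above the control range, and the 24 h libraries lay above those of 48 h. At 24 h Vcan was 1.84-fold over control, a log2 fold change of 0.88 (SE 0.09, FDR 1.66e-06), and 99.1% of tested genes had a lower value. At 48 h it was 1.26-fold over control (log2 fold change 0.34, SE 0.09, FDR 0.00327). From 24 h to 48 h it fell by 31.3% (log2 fold change -0.54, SE 0.08, FDR 2.87e-05).

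Vcan differed from Dcn in its course, and the ratio of Vcan to Dcn per kilobase was 0.332 ± 0.0466 (SD, n = 3) in the control, 0.507 ± 0.0222 at 24 h and 0.199 ± 0.0230 at 48 h. No libraries of different groups overlapped in this ratio. Of the tested members Vcan had the widest spread between control libraries relative to its mean. It overlaps Gm4117 on the opposite strand, which had at most 35 counts and at most 1.28% of the Vcan count of the same library.

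**Figure D3:**
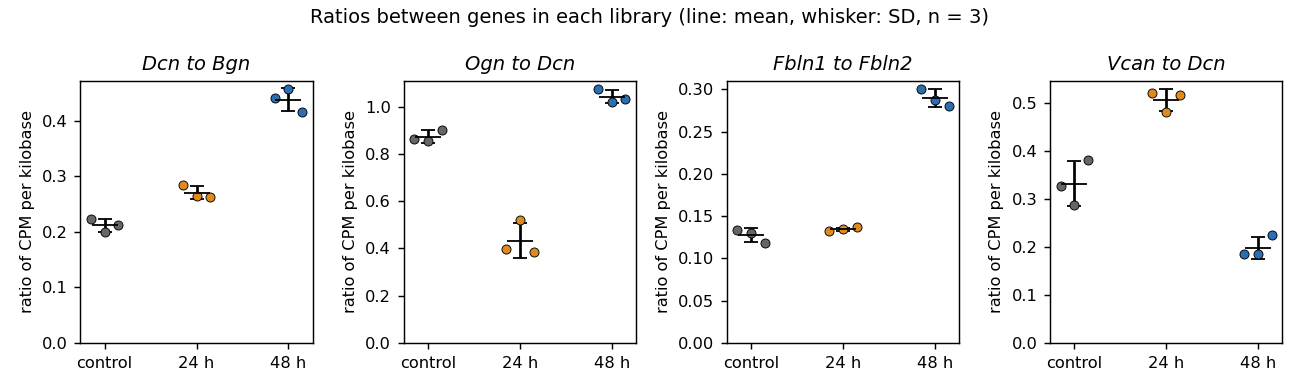
Ratios of CPM per kilobase between pairs of members in each library, with a line for the mean and whiskers for the SD of 3 libraries. The ratio of Dcn to Bgn climbs from 0.211 to 0.438, that of Ogn to Dcn dips to 0.433 at 24 h, that of Fbln1 to Fbln2 reaches 0.289 at 48 h and that of Vcan to Dcn peaks at 0.507 at 24 h.

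**Figure D4:**
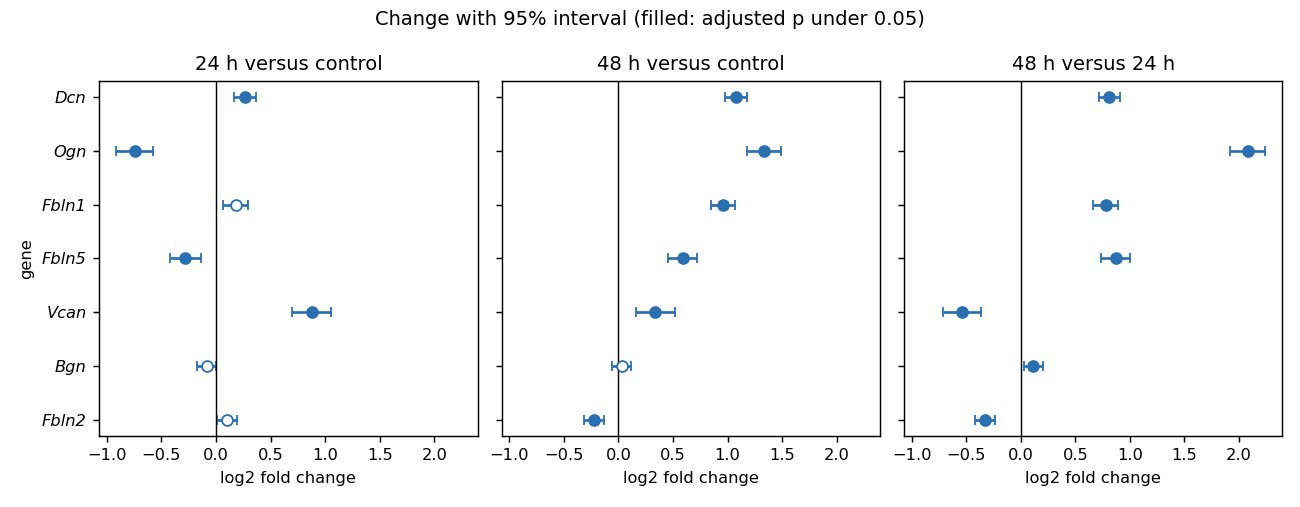
Log2 fold change of the 7 tested genes in each comparison, with 95% intervals and filled points for an FDR under 0.05. At 24 h the points fall on both sides of 0, from -0.75 for Ogn to 0.88 for Vcan, and at 48 h they run from -0.23 for Fbln2 to 1.33 for Ogn.

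Likeness of course was measured as the root mean square difference of log2 CPM over the 9 libraries, after each gene was centred on its mean. Dcn and Fbln1 were the closest pair of members, with a difference of 0.0814. Bgn and Fbln2 followed with 0.183, and Fbln1 and Fbln5 with 0.203. The difference is also small between genes that move little. From 24 h to 48 h Bgn and Fbln2 went in opposite directions, with log2 fold changes of 0.12 and -0.32. Ogn and Vcan were the farthest apart with 1.10, and Ogn differed from every other member by at least 0.513.

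Among 10514 other genes with a mean of at least 5 CPM, the 2 nearest were taken for the 3 members with the smallest joint p. Dcn lay nearest to Col3a1, a fibril collagen gene, with a difference of 0.0324, and to Zfp36l1, which encodes an mRNA decay factor, with 0.0398. Ogn lay nearest to Tgfb2, a TGF-β ligand gene, with 0.109, and to Abi3bp, a matrix protein gene, with 0.141. Fbln1 lay nearest to Higd1a with 0.0613 and to Fzd1, a WNT receptor gene, with 0.064. On the log2 scale Tgfb2 differed from control by -0.61 (24 h) and 1.42 (48 h), beside -0.75 and 1.33 for Ogn. Col3a1 differed by 0.29 and 1.13, beside 0.27 and 1.08 for Dcn. As Tgfb2 and Col3a1 were picked for nearness over these same libraries, their like changes follow from that choice.

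Related genes were followed in fixed lists that were drawn up from general knowledge with earlier results of these data known. The counts of calls in every list below stand beside the shares over all genes tested. Against control these were 3.25% higher and 2.90% lower at 24 h, and 22.0% higher and 24.4% lower at 48 h. Of 11 other small leucine-rich proteoglycan genes 5 were tested. At 48 h versus control 2 were higher and 3 were not called, with a median log2 fold change of 0.74, and at 24 h 1 was higher, with a median of 0.04. That 48 h median was the value of Podn (FDR 0.117), which averaged 0.61 CPM in the control and 1.01 CPM at 48 h. Podnl1, with 28.7 CPM in the control, had a log2 fold change of -0.10 (FDR 0.428) at 48 h. The higher genes at 48 h were Ecm2 (log2 fold change 1.36, FDR 0.00433) and Omd, the osteomodulin gene (1.31, FDR 0.0118), both under 2 CPM in every group mean, which puts them below the level required for naming. Tsku, which encodes the secreted regulator tsukushi, was the gene called at 24 h, with 59.4 CPM in the control, 92.2 CPM at 24 h (log2 fold change 0.64, FDR 1.82e-05) and 52.6 CPM at 48 h (log2 fold change -0.17, FDR 0.0787). Ecm2, Omd, Tsku, Podn and Podnl1 were named after their values were seen. Optc was at 0 throughout and Aspn, Kera, Epyc, Chad and Nyx had at most 17 counts in any library.

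Of the 5 other fibulin and hemicentin genes 3 were tested, and all 3 of these were higher at 48 h than in the control. Efemp1, the gene of a fibulin of elastic tissue, had means of 356.6, 300.4 and 623.8 CPM in control, 24 h and 48 h, with log2 fold changes of -0.25 (FDR 0.00155) at 24 h and 0.81 (FDR 8.2e-11) at 48 h. Fbln7 had means of 78.4, 60.8 and 110.8 CPM, with -0.37 (FDR 0.00117) and 0.50 (FDR 2.74e-06). Both thus fell below control at 24 h and rose above it at 48 h, as Fbln5 did. Efemp2, a fibulin gene needed for elastic fibre assembly, had 0.08 (FDR 0.388) at 24 h and 0.51 (FDR 8.11e-08) at 48 h. The median of the 3 tested genes was -0.25 at 24 h and 0.51 at 48 h. Hmcn1 was at 0 and Hmcn2 had at most 15 counts.

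Of 15 genes of hyalectans, hyaluronan and their partners 9 were tested. At 24 h 3 were higher and 6 were not called, with a median log2 fold change of 0.15, and at 48 h 2 were higher and 1 lower, with a median of 0.0056. Cemip, which encodes a hyaluronan-degrading protein, was higher at both times, with means of 4.72, 11.0 and 12.4 CPM and log2 fold changes of 1.22 (FDR 2.81e-05) and 1.39 (FDR 3.15e-07). Tnfaip6, whose product crosslinks hyaluronan, had 0.64 (FDR 0.00584) at 24 h and 0.34 (FDR 0.0456) at 48 h. Cd44, the hyaluronan receptor gene, had 0.12 (FDR 0.185) at 24 h and -0.57 (FDR 3.34e-08) at 48 h. The other gene called at 24 h was Has2, a hyaluronan synthase gene (log2 fold change 0.83, FDR 0.000512), with means of 6.97, 12.4 and 5.93 CPM, which was named after its values were seen. Acan, the aggrecan gene and relative of Vcan in cartilage, had 0 counts in every library.

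Of 14 genes of elastic fibres and of fibulin partners in fibronectin matrix and basement membrane (Fn1, Nid1 and Nid2) 10 were tested, with 3 higher and 1 lower at 24 h (median log2 fold change -0.06) and 5 higher and 2 lower at 48 h (median 0.32). Lox, the lysyl oxidase gene, had means of 911.0, 1425 and 1693 CPM and log2 fold changes of 0.65 (FDR 7.27e-08) at 24 h and 0.89 (FDR 6.43e-11) at 48 h. Loxl1, whose product is tethered by fibulin-5, had -0.29 (FDR 0.0239) at 24 h and 0.66 (FDR 4.58e-07) at 48 h, with means of 46.4, 37.9 and 73.2 CPM. Fbln5 had -0.28 and 0.59 in the same comparisons. Nid2, a basement membrane gene, had 0.59 (FDR 0.0052) at 48 h. Of the calls, Nid1 was 1 of the 3 higher at 24 h, and Fn1 and Nid2 were 2 of the 5 higher at 48 h. The 2 lower at 48 h were Fbn1 (log2 fold change -0.19, FDR 0.0378, libraries overlapping) and Ltbp4 (-0.42, FDR 0.000544). Eln was not called at 48 h (FDR 0.272). Fbn1, Ltbp4 and Eln were named after their values were seen. Mfap4 was at 0 and Fbn2, Mfap2 and Mfap5 had at most 3 counts in any library.

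Of 13 collagen genes whose fibrils or filaments these proteoglycans bind 12 were tested, with 3 higher and 5 lower at 24 h (median log2 fold change -0.09) and 8 higher and 2 lower at 48 h (median 0.29). Over all genes tested 3.25% were called higher and 2.90% lower at 24 h, and 22.0% and 24.4% at 48 h. Col3a1 had means of 803.8, 979.5 and 1758 CPM, with an FDR of 5.97e-05 at 24 h and 2.16e-13 at 48 h. Col14a1, a fibril-associated collagen gene, had log2 fold changes of -0.56 (FDR 4.24e-05) at 24 h and 0.98 (FDR 7.67e-10) at 48 h, in the same directions as Ogn. Col12a1 had 0.82 (FDR 4.4e-05) and 0.89 (FDR 1.34e-06). The main collagen of bone, Col1a1, had -0.20 (FDR 0.00312) and -0.14 (FDR 0.0085), and is given here, outside the rule for naming, as a marker of osteoblasts.

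Of 24 genes for chondroitin and dermatan sulfate synthesis, which build the side chains of decorin, biglycan and versican, 22 were tested. At 24 h 1 was higher, 1 was lower and 20 were not called, with a median log2 fold change of -0.03. At 48 h 7 were higher, 5 were lower and 10 were not called, with a median of 0.02. Chst15, a chondroitin sulfotransferase gene, had means of 3.23, 3.02 and 10.6 CPM and a log2 fold change of 1.72 (FDR 1.51e-07) at 48 h. Xylt1, which starts the chains, had 0.53 (FDR 0.000823), and Chpf, which helps polymerise them, had -0.55 (FDR 1.94e-06). The counts at 48 h stand beside 22.0% of all genes tested called higher and 24.4% called lower. Of 7 keratan sulfate genes 3 were tested, and Chst1 alone of these was called, with -0.50 (FDR 0.000638) at 24 h and -0.34 (FDR 0.00173) at 48 h. The medians of that list were -0.23 and -0.14.

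**Figure D5:**
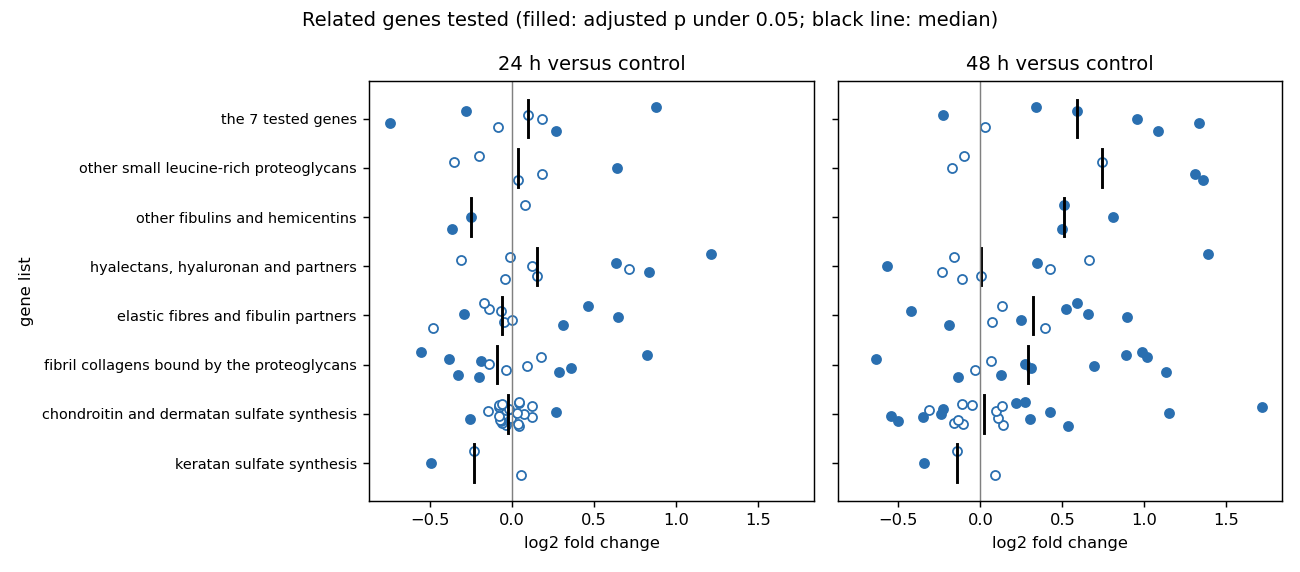
Log2 fold change over control of the 7 tested genes and of the tested genes in each related list, at 24 h and 48 h, with filled points for an FDR under 0.05 and a black line for the median. The other fibulins sit at -0.25 on the median at 24 h and 0.51 at 48 h, and the side chain enzymes centre at -0.03 and 0.02.

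Markers of other cells were set beside these changes. Their counts of calls stand beside 22.0% of all genes tested called higher and 24.4% lower at 48 h, and 3.25% and 2.90% at 24 h. Over the chondrocyte list 5 of 16 genes were tested, and 3 were higher (Prg4, Sox9 and Comp) and 1 lower (Matn3) at 48 h, while at 24 h the FDR of the 5 ran from 0.243 for Prg4 to 0.702 for Comp. Prg4 had a log2 fold change of 0.38 (FDR 8.64e-08) at 48 h and Sox9 had 0.14 (FDR 0.0449). Comp (FDR 0.0267) and Matn3 (FDR 0.00155) were under 5 CPM. Over the osteocyte and osteoblast list 7 of 12 genes were tested, and at 48 h 2 were higher (Phex and Pdpn) and 4 lower (Col1a1, Alpl, Bglap and Sp7). The Bglap libraries overlapped those of the control, and Sp7 was under 2 CPM. Their summed level was 1544 to 1625 CPM in the control, 1436 to 1506 CPM at 24 h and 1492 to 1520 CPM at 48 h. Of the 8 macrophage genes 3 were tested, of which Cd14 was called higher at both times (FDR 0.000304 at 24 h and 0.0285 at 48 h) and Csf1r, under 5 CPM, lower at 24 h (FDR 0.0377). The marker genes were named outside the rule for naming, after their values were seen. The part of these markers in the changes above was not tested.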

How the data were processed

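RNA of MLO-Y4 cells was sequenced as directional paired-end libraries, 3 per group. As the labels and the study's methods describe it, the authors trimmed the reads, aligned them with HISAT2 to GRCm39 and counted them per gene with featureCounts (version 2.06 in the processing notes). The deposited values are raw counts, not normalized. RSEM is also named, and the strand setting is not given in the sources used here. Gene length, as the authors gave it, entered only CPM per kilobase.

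Counts were analysed with edgeR 4.0.16 in R 4.3.3. filterByExpr with a minimum count of 10 kept 13812 of 56748 genes, with 99.9% of reads. TMM factors of edgeR scaled the totals, and CPM are relative to them. A quasi-likelihood fit held all 9 libraries with group as the only term. P-values were adjusted (FDR) over all genes tested (Benjamini-Hochberg, threshold 0.05). SE were derived from the fold change and F statistic. Log2 CPM used a prior count of 2. Depth was 12250628 to 18515456 counts per library, with a floor of 3 counts. Replicate pairs differed by more than counting noise (chi-square per degree of freedom 2.32 to 8.45). The procedure was also run on simulated counts with far fewer changed genes than were called here at 48 h. That run does not show how it behaves with so many changes.

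The members and lists were chosen with earlier results of these data known. Besides the 10 members, up to 3 genes per list were named, with the largest absolute log2 fold change at 48 h versus control among called genes with at least 5 CPM in either group and no overlap of libraries. Marker genes, and list genes at or near 0, are named outside this rule. So are Ecm2, Omd, Tsku, Podn, Podnl1, Has2, Fn1, Nid1, Fbn1, Ltbp4, Eln and Col1a1. Likeness names 2 genes for each of 3 members. Alternatives were DESeq2 1.42.0, limma-voom (limma 3.58.1), other scalings, filters and thresholds, a replicate block, fits of only the libraries compared, and leaving out each library. Lists were described by counts and medians only.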

Additional observations from a re-analysis of the deposited data

Results flagged for a closer look

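The change over control differed between 48 h and 24 h for each of the 7 tested genes, by the direct contrast of the times in the edgeR fit of all 9 libraries, whose spread and scaling also draw on the control. The change at 48 h minus that at 24 h was 2.08 on the log2 scale for Ogn, 0.868 for Fbln5, 0.812 for Dcn, 0.777 for Fbln1 and 0.116 for Bgn. It was -0.324 for Fbln2 and -0.542 for Vcan. For Bgn the call (FDR 0.0298) was lost in 5 of 17 alternatives, and Bgn was not called against control at either time. Of all genes tested 49.1% were called in this contrast. The time of co-culture and the cell line names in the labels of the 48 h libraries cannot be told apart. Groups of 3 libraries were not searched for single outlying libraries.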

How the results depend on the processing

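Requiring an absolute log2 fold change of at least 1 left 2 of the 6 calls at 48 h versus control (Ogn and Dcn), 0 of the 4 at 24 h and 1 of the 7 at 48 h versus 24 h (Ogn). All other alternatives moved these counts by no more than 1.5 times. With each library left out in turn, 6 members were called at 48 h versus control in every case, 3 to 4 at 24 h versus control, 6 to 7 at 48 h versus 24 h and 6 to 7 in the joint test. With no filter the counts were 7, 5, 6 and 6. Over 17 alternatives for each of 21 member changes, 344 of the values kept direction and side of the threshold, 5 passed it newly (Fbln1 at 24 h), 8 lost it (3 for Fbln5 at 24 h, 5 for Bgn between the times) and 0 reversed. Of the Bgn losses, 1 came with no filter (adjusted p 0.117).

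Groups share replicate numbers, which the labels tie to no shared culture or day. Libraries with the same number deviated together with correlations of -0.0493 to 0.0775 across genes, and 5 of 9 correlated best with their own number. With the replicate number as a block 6, 4, 7 and 6 members were called, so the block changed no count. Depth limits Lum, Fmod and Prelp, for which no fold can be judged.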
